A study of Mus musculus with 2 samples.

Results

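The genes of the tumor necrosis factor (TNF) ligand and receptor superfamilies were examined for open chromatin in mouse hematopoietic stem cells. The members were every protein-coding gene of the mm10 GENCODE annotation whose symbol starts with Tnfsf or Tnfrsf, together with Tnf, Lta, Ltb, Ltbr, Fas, Fasl, Cd40, Cd40lg, Cd70 and Ngfr. This gave 42 of 21853 protein-coding genes, of which 18 encode ligands and 24 encode receptors. Each of the 2 ATAC-seq libraries held 50000 hematopoietic stem cells, the bone marrow cells that renew themselves and form all blood lineages, from male C57BL/6J mice 5 to 6 weeks old. ATAC-seq marks open chromatin by the places where the Tn5 transposase inserts adapters into DNA, and clusters of insertions are reported as peaks. There was 1 group of cells and no treatment or other cell type, so genes were compared with genes. The labels call the libraries biological replicates and they are separate biosamples, but both carry the same donor identifier. Whether they came from separate animals could not be worked out, so the spread between the replicates may be technical.

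TNF superfamily ligands are mostly trimeric membrane proteins, and some are cut from the cell surface to act at a distance. Their receptors either carry a cytoplasmic death domain, which can recruit caspases or kinases, or bind TRAF adaptors, which lead to NF-kappaB and MAP kinase signaling. Decoy receptors bind ligand without passing on a signal. In blood formation the family is best known from lymphocyte activation, inflammation and death receptor signaling, and TNF itself acts on hematopoietic stem cells during inflammation.

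The thresholded lists, which keep peaks whose ranks were reproducible by the irreproducible discovery rate (IDR), held 25141 peaks in replicate 1 and 24495 in replicate 2. The less strict pseudoreplicated lists held 62918 and 64843 peaks. Promoters were taken as the 1000 bp on each side of every transcription start site (TSS), and a gene is called open below when each replicate had a thresholded peak over a promoter of it. The lists carry no read depth, and where no peak is listed, this says only that none was called at the threshold used. The cell type label was set against marker genes. Of 10 stem cell markers, 4 were open (Kit, Hlf, Meis1 and Runx1) and 8 had a less strict promoter peak in both replicates. Slamf1 and Hoxb5 lacked the latter. Of all protein-coding genes, 41.3% were open and 58.0% had such less strict peaks. The open count alone thus does not set the stem cell markers apart from other genes. None of the 20 markers of B cells, T cells, granulocytes and monocytes, or erythroid cells was open, and 5 of them had less strict peaks in both replicates. Klf1 and Epor in replicate 1 and Ebf1 in replicate 2 had a thresholded promoter peak. Of 6 endothelial and stromal markers, 3 were open (Cdh5, Col1a1 and Pdgfrb), and the part of such cells in the values below was not tested.

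Few ligand promoters and close to the general share of receptor promoters were open. Of the ligands, 2 of 18 were open (11.1%, Wilson 95% interval 3.10 to 32.8%), and of the receptors, 10 of 24 (41.7%, interval 24.5 to 61.2%). Together 12 of 42 members were open (28.6%, interval 17.2 to 43.6%), against 41.3% of all protein-coding genes. The intervals cover the counting of genes only and overlap between ligands and receptors. The open ligands were Tnfsf10 and Tnfsf14, and the open receptors were Fas, Ltbr, Tnfrsf1a, Tnfrsf1b, Tnfrsf9, Tnfrsf11b, Tnfrsf14, Tnfrsf21, Tnfrsf22 and Tnfrsf23. No member had a thresholded promoter peak in replicate 1 alone, against 4.64% of all genes. In replicate 2 alone there were 3 members, the ligands Ltb and Tnfsf8 and the receptor Tnfrsf18, or 7.14% of members against 2.82% of all genes.

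The windows reaching 50 bp either side of the replicate 1 summits of the strongest promoter peaks are shown here for both open ligands and for the leading receptors, because these peaks carry the promoter result. Each is written in the direction of its gene, and capitals mark every match to the motif words named with the counts further on, except the E-box. The Tnfsf10 window lies at chr3:27316992-27317092 on the plus strand, and that of Tnfsf14 at chr17:57194132-57194232 on the minus strand. The Tnfrsf22 window lies at chr7:143649636-143649736 and the Tnfrsf23 window at chr7:143685822-143685922, both on the minus strand. The Tnfrsf9 window lies at chr4:150914444-150914544 and the Fas window at chr19:34290602-34290702, both on the plus strand. All positions are in GRCm38 (mm10).
Tnfsf10: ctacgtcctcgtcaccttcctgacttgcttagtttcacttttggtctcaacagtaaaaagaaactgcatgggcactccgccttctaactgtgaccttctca
Tnfsf14: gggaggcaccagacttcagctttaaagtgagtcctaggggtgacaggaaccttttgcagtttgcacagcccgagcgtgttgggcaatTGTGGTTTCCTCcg
Tnfrsf22: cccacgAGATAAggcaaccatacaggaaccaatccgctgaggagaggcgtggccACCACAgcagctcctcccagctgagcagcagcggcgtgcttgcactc
Tnfrsf23: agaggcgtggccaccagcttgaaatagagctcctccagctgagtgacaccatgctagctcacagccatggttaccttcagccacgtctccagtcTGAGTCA
Tnfrsf9: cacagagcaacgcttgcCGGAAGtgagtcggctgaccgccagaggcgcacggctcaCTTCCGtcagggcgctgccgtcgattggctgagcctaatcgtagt
Fas: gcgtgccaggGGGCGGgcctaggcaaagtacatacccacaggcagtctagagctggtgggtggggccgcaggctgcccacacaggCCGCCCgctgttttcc

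Both open ligand promoters were strong peaks. The signal value is the authors' peak score, and its percentile is its rank within its own list, with 100 the strongest. Tnfsf10 encodes TRAIL, which binds death receptors, and its promoter peak had a signal of 12.30 in replicate 1 and 11.87 in replicate 2. The Tnfsf10 values stood at percentiles 87.4 and 76.7, and the summits lay 14 and 7 bp downstream of the TSS. Tnfsf14 encodes LIGHT, a ligand of the lymphotoxin beta receptor, and its promoter peak had signals of 11.95 and 11.97, at percentiles 85.5 and 77.7. These peaks were 791 and 716 bp wide at Tnfsf14 and 662 and 614 bp wide at Tnfsf10. Over all peaks of the 2 lists, distal ones included, the median widths were 473 and 494 bp. Such widths were not particular to the ligands, as the Ltbr peaks were 737 and 666 bp wide. The Tnfrsf1a peaks were narrower, at 278 and 252 bp.

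Of the ligands seen in replicate 2 alone, Tnfsf8, which encodes the ligand of CD30, had a signal of 8.73 there, with the summit 33 bp upstream of the TSS. In replicate 1 the Tnfsf8 promoter had a peak in the less strict list only, with a signal of 9.99, so its absence from the thresholded list did not go with a low signal. Ltb encodes lymphotoxin beta, and its replicate 2 peak had a signal of 6.36 at percentile 5.23. The Ltb summit lay 1191 bp downstream of the nearest TSS, in an exon of the gene, and only the edge of that peak reached the promoter window.

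Less strict lists added peaks at 7 more ligands in both replicates: Tnf, Tnfsf4, Tnfsf8, Tnfsf9, Tnfsf12, Tnfsf18 and Tnfsfm13. Tnfsf12 and Tnfsfm13, a readthrough of Tnfsf12 and Tnfsf13, gave the same peak values (4.54 and 4.85) and are not independent. Tnf, the founding inflammatory cytokine of the family, had less strict signals of 4.85 and 5.32. Its promoter also had a peak in both series-level lists, which cover both libraries. In replicate 1 these 7 ligands ranged between 3.63 and 9.99, with a median of 4.54. In replicate 2 they ranged between 4.01 and 8.73, with a median of 4.85, so all 7 lay below both open ligands. Cd70, Ltb, Tnfsf11 and Tnfsf13b had such a peak in 1 replicate only. No promoter peak was called in any replicate list for 5 ligands: Cd40lg and Fasl, which are characteristic of activated T cells, Lta, Tnfsf13 and Tnfsf15.

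The receptors ranged more widely. The strongest were Tnfrsf22 and Tnfrsf23, neighbouring genes that in the mouse encode decoy receptors for TRAIL. Tnfrsf22 had signals of 13.35 and 15.44, at percentiles 92.6 and 96.0. Tnfrsf23 had signals of 12.21 and 14.30, at percentiles 86.9 and 92.2, with its summit on a TSS in both replicates. Over 500 bp either side of the TSS these promoters were 83.3% identical (880 of 1057 aligned columns), but the 31-mers at the summits of their main peaks each occur once in the genome. A second, weak replicate 1 peak at Tnfrsf23 (signal 3.08) had a summit 31-mer with more than 1 copy. The third gene of the cluster, Tnfrsf26, was not open and had less strict signals of 6.30 and 5.66. Its promoter was 51.6% identical to that of Tnfrsf22 and likewise to that of Tnfrsf23. Tnfrsf11b encodes osteoprotegerin, a secreted decoy for RANKL, and had its strongest signals at 7.45 in replicate 1 and 8.38 in replicate 2. These were different peaks, and the replicate 1 peak that overlapped the replicate 2 one had a signal of 7.24. All 3 decoy receptor genes were thus open (Wilson interval 43.9 to 100%), against 41.3% of all genes. Tnfrsf22 and Tnfrsf23 are neighbours with similar promoters, so the 3 are not independent. Tnfrsf26 was assigned to none of the decoy, death domain and TRAF-binding classes.

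Of the 6 receptors with a death domain, 3 were open, against 41.3% of all genes, and 5 had less strict promoter peaks in both replicates, against 58.0%. The Wilson interval of 3 of 6 ran between 18.8 and 81.2% and held the share of all genes. Fas, which triggers apoptosis when Fas ligand binds, had signals of 9.95 and 9.65. Tnfrsf1a, the main TNF receptor of most cell types, had signals of 8.97 and 8.45 at a TSS 272 bp downstream of the first one. Tnfrsf21 (death receptor 6) had a pair of peaks in each replicate. Its TSS peak had signals of 8.32 and 8.59, and a peak 1006 bp into the gene by its replicate 1 summit had signals of 9.82 and 8.15. Neither of Ngfr and Tnfrsf10b was open, and their less strict signals were 3.24 and 3.89 for Ngfr, and 4.91 and 4.85 for Tnfrsf10b, the signaling TRAIL receptor. Tnfrsf25 had a less strict peak in replicate 2 only (5.24).

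Of the 14 receptors that signal through TRAF adaptors without a death domain, 4 were open and 9 had less strict peaks in both replicates, against the same 41.3% and 58.0% of all genes. Tnfrsf9 encodes 4-1BB, a costimulatory receptor of T cells, and had signals of 9.49 and 10.41. Its summits lay 68 and 50 bp upstream of the TSS, and the same peak overlapped the promoter of Park7. Ltbr, the receptor of LIGHT and lymphotoxin, had signals of 9.71 and 9.12. The weakest open members were Tnfrsf1b, the second TNF receptor, with 6.28 and 7.41, and Tnfrsf14 (HVEM) with 5.66 and 6.76. Tnfrsf14 stood at percentiles 5.78 and 8.12 of the lists, and its peak lay at a TSS 361 bp downstream of the first one.

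Among the other TRAF-binding receptors, Tnfrsf18 (GITR) had a thresholded peak of 8.65 in replicate 2 and a less strict one of 6.13 in replicate 1. Tnfrsf13c, the BAFF receptor of B cells, had less strict signals of 6.24 and 7.14. Tnfrsf19 had 6.43 and 5.17, Tnfrsf8 (CD30) had 4.34 and 6.29, and Tnfrsf11a (RANK) had 4.20 and 4.58. Cd40 (4.91) and Tnfrsf12a (3.55) had a less strict peak in replicate 1 only. No promoter peak was called in any replicate list for Tnfrsf4, Tnfrsf13b and Tnfrsf17, the first a receptor of activated T cells and the others receptors of B cells and plasma cells.

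**Figure D1:**
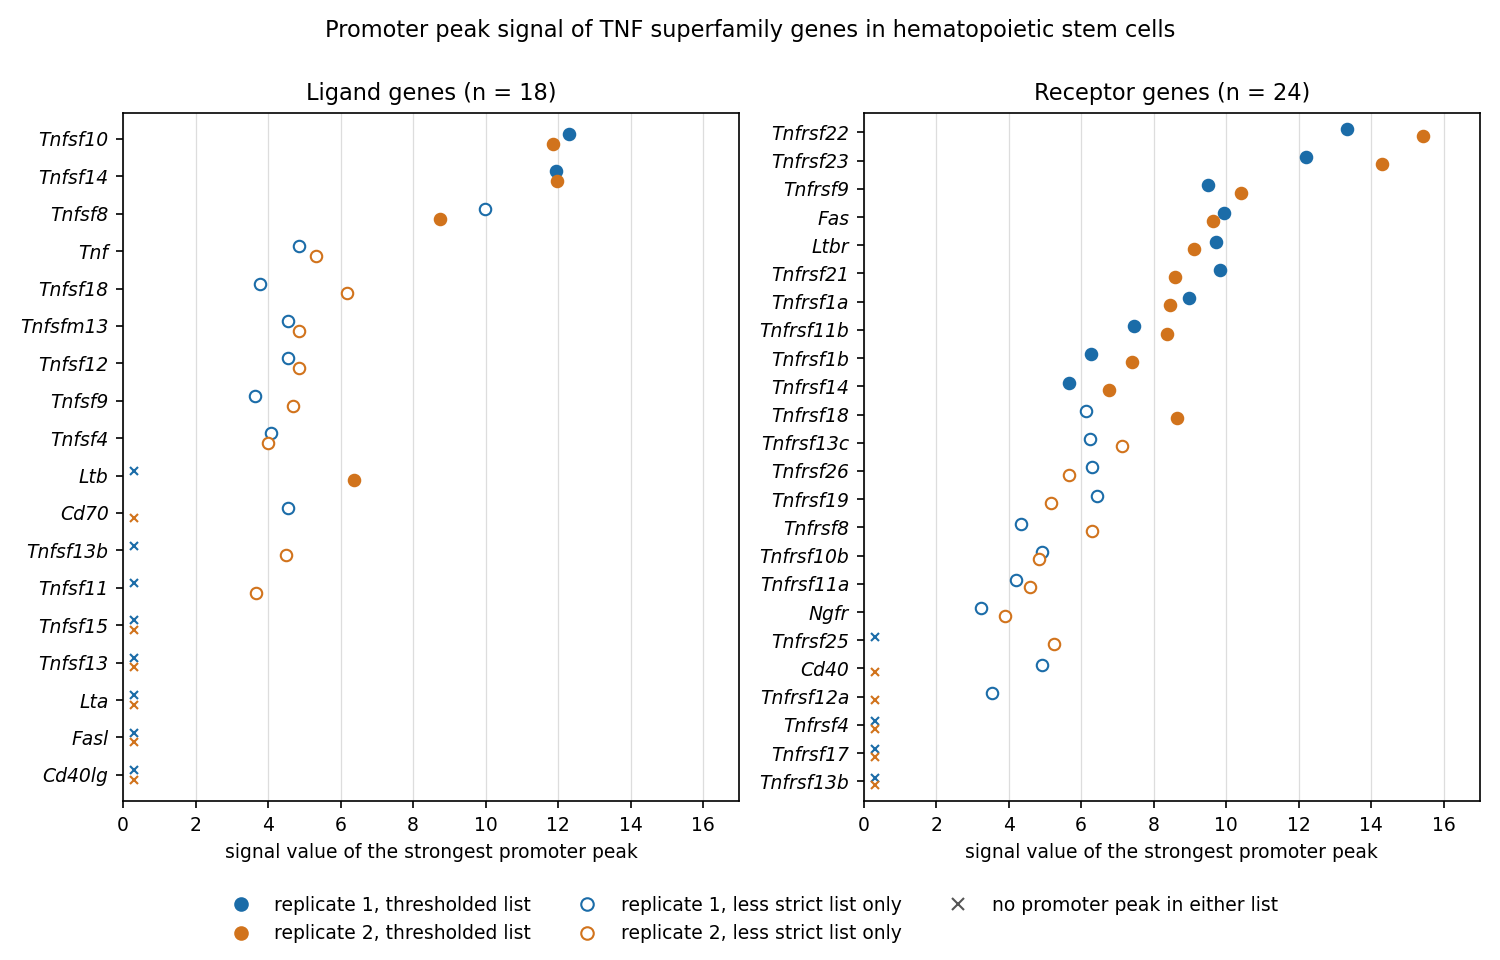
Signal value (horizontal axis, the authors' peak score) of the strongest promoter peak of each gene, ligands in the left panel and receptors in the right, with replicate 1 in blue and replicate 2 in orange. Filled points are thresholded peaks, open points are peaks of the less strict list only and crosses mark no called peak; Tnfrsf22 and Tnfrsf23 reach furthest right.

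In 10 of the 12 open members the summit of the strongest shared peak lay no more than 100 bp from a TSS in each replicate, Tnfrsf11b and Tnfrsf21 being the others. The mean percentile over the replicates was 81.6 and 82.1 at the open ligands, and had a median of 51.6 over the open receptors (range 6.95 to 94.3). It took the strongest promoter peak of each replicate, and at Tnfrsf11b and Tnfrsf21 these were different peaks. Over all open members the median was 56.3, against 68.2 over all open genes, and 8 of the 12 members stood below that median. The same 4 members, Tnfrsf22, Tnfrsf23, Tnfsf10 and Tnfsf14, stood highest in both replicates, and Tnfrsf1a, Tnfrsf11b, Tnfrsf1b and Tnfrsf14 lowest. The median percentile of the 12 was 65.6 in replicate 1 and 46.0 in replicate 2, where the medians of all open genes were 72.0 and 66.5. With signal values from only 2 libraries no interval was put on these medians.

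The order of ligands and receptors was the same in each list tried. In both less strict lists, 9 of 18 ligands (50%) and 18 of 24 receptors (75.0%) had a promoter peak, against 58.0% of all genes. No peak in either less strict list was found for 5 ligands (27.8%) and 3 receptors (12.5%), against 36.6% of all genes. In the series-level thresholded list, 5 ligands (27.8%) and 14 receptors (58.3%) had a promoter peak, against 51.9% of all genes. Beside the open members these were Ltb, Tnf, Tnfsf8, Tnfrsf8, Tnfrsf13c, Tnfrsf18 and Tnfrsf25. In the series-level conservative list the counts were 8 ligands (44.4%) and 18 receptors (75.0%), against 54.7% of all genes. Despite its name, that list held more peaks (43478) than the series-level thresholded list (36033), so it cannot be read as the stricter one. The Wilson intervals of ligands and receptors overlapped in every one of these lists, and the lists derive from the same libraries, so they are not separate measurements.

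**Figure D2:**
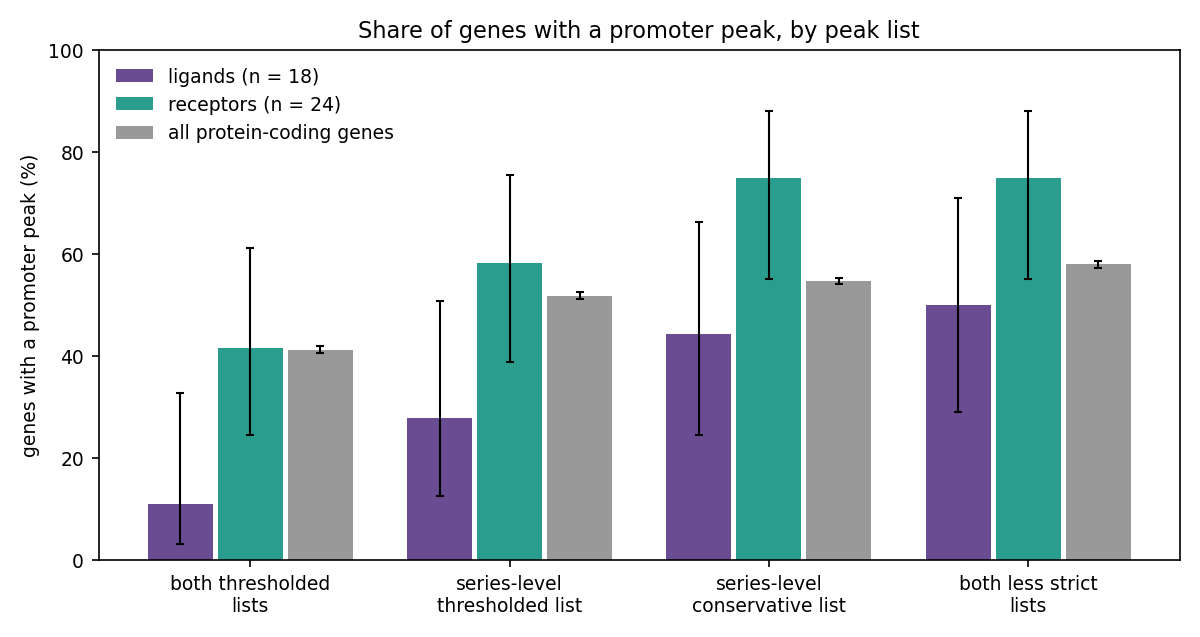
Share of genes with a promoter peak (vertical axis, percent) in each of 4 kinds of peak list, for ligands, receptors and all protein-coding genes. Error bars are Wilson 95% intervals; the ligand bar is below the receptor bar in each list, and their error bars overlap.

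CpG-rich promoters are more often accessible in most cell types, so members were also read by the ratio of observed to expected CpG in the promoter. The median ratio was 0.27 in ligands (range 0.16 to 0.50) and 0.38 in receptors (0.15 to 0.68), against 0.48 over all genes. In the lowest tertile of all genes by this ratio, 2 of 10 ligands (20%) and 1 of 6 receptors (16.7%) were open, against 9.27% of all genes. In the middle tertile none of 8 ligands and 7 of 14 receptors (50%) were open, against 49.2% of all genes. In the highest tertile there was no ligand, and 2 of 4 receptors were open (50%), against 65.5% of all genes. Both open ligands thus had CpG-poor promoters, with ratios of 0.16 at Tnfsf10 and 0.27 at Tnfsf14. In the less strict lists the middle tertile gave 4 of 8 ligands and 11 of 14 receptors (78.6%), against 69.6% of all genes.

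**Figure D3:**
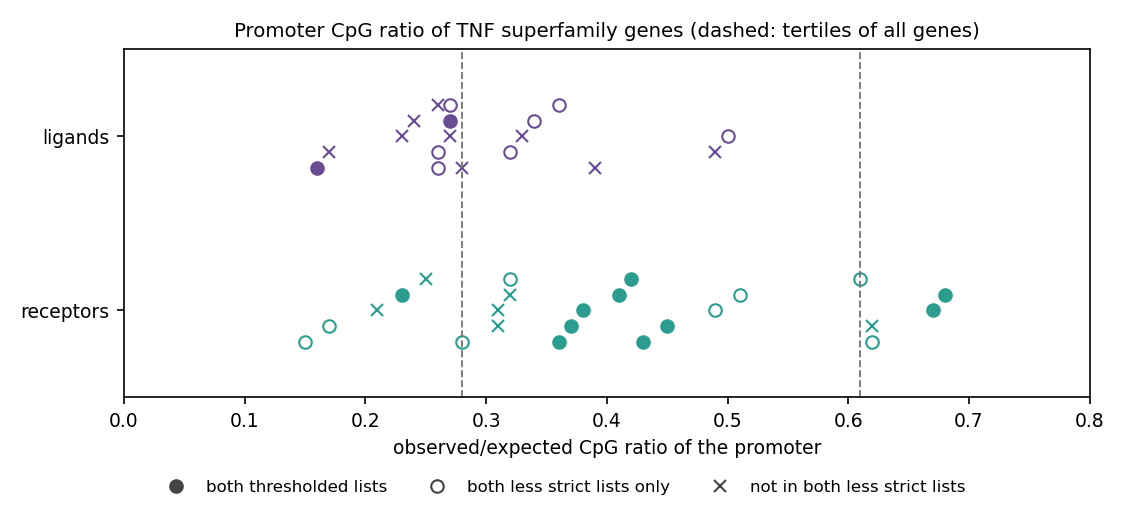
Observed/expected CpG ratio of each member's promoter (horizontal axis), ligands above receptors, with small vertical offsets only to separate points. Filled points had a thresholded promoter peak in both replicates, open points a less strict one in both, and crosses neither; the filled ligand points lie left of the first dashed line.

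Motif words were counted on both strands in such windows of the 12 open members and of 8993 windows over all open genes. RUNX (TGTGGT) was found in 3 member windows (25.0%: Tnfsf14, Tnfrsf11b and Tnfrsf22), against 4.49% of all windows. The interferon word GAAANNGAA was found in 2 (16.7%: Tnfrsf14 and Tnfrsf1b), against 1.89%. PU.1 (GAGGAA) was found in 2 (16.7%: Tnfsf14 and Ltbr), against 10.9%, and ETS (CGGAAG) in 2 (16.7%: Tnfrsf1a and Tnfrsf9), against 20.7%. Sp/KLF (GGGCGG) was found in 3 (25.0%: Fas, Ltbr and Tnfrsf1b), against 43.1%. The word AGATAA of GATA factors stood in the Tnfrsf22 window alone, against 1.15% of all windows, and AP-1 (TGANTCA) in the Tnfrsf23 window alone, against 1.58%. The E-box CANNTG was in 7 (58.3%), against 25.1%. These 7 include Tnfrsf22 and Tnfrsf23, whose promoters are similar and not independent. They also include the Tnfrsf21 window, which lies 1006 bp into the gene and is counted among the distal windows too. NF-kappaB (GGGNNTTCC) and CRE (TGACGTCA), found in 2.86% and 2.32% of all windows, had no match. In the Tnfsf14 window printed above, the RUNX and PU.1 matches lie side by side as 1 run of capitals. Words can overlap, and each was counted on its own. A match shows only that the letters are present, and the median GC content was 63.4% in both sets of windows.

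Distal peaks were thresholded peaks shared by the replicates, with the summit over 1000 bp from every protein-coding TSS and within 50 kb of a TSS of the gene. At least 1 was found for 9 of 18 ligands (50%) and 17 of 24 receptors (70.8%), together 61.9% of members, against 43.9% of all genes. The mean number was 1.06 ± 1.47 per ligand and 1.42 ± 1.56 per receptor (SD over genes, n = 18 and 24), against 0.717 ± 1.03 over all genes. The difference between these means was not tested. The 53 gene and peak pairs came from 46 distinct peaks, since neighbouring members share them. Of the 46 peaks, 24 lay in introns, 18 between genes and 4 in exons. A member had the nearest TSS for 28 of the 46 (60.9%), namely 11 of 13 ligand peaks and 17 of 33 receptor peaks.

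Distal peaks were not limited to members with an open promoter. Of the members that were not open, 7 of 16 ligands (43.8%) and 9 of 14 receptors (64.3%) had a distal peak, against 37.9% of all such genes. Of the open ones, both ligands and 8 of 10 receptors had one, against 52.3% of all open genes. Distal peaks without an open promoter were thus found at 16 of 42 members (38.1%), against 22.2% of all genes. The opposite, an open promoter without a distal peak, was found at 2 members (Fas and Tnfrsf22; 4.76%), against 19.7% of all genes. Neither was found at 9 ligands and 5 receptors (33.3% of members), against 36.4% of all genes.

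Tnfsf8 had the most distal peaks of the ligands. Its 5 peaks lay 36.0 kb upstream and 14.0, 20.7, 38.0 and 43.6 kb downstream of the TSS, and its own TSS was the nearest to all of them. Their signals were 12.04 and 12.04, then 8.61 and 9.81, 12.85 and 13.24, 11.30 and 11.51, and 7.56 and 9.54, replicate 1 before replicate 2 in each pair. The summit 31-mer of the peak at 14.0 kb occurs more than once in the genome. At least 5 distal peaks were found at 0.792% of all genes. The strongest of the 5, at chr4:63840538-63840789 in an intron, stood at a mean percentile of 88.7. Fasl, with no promoter peak in any replicate list, had a single distal peak 21.5 kb downstream of its TSS, at chr1:161766575-161767032 between genes. The Fasl peak had signals of 14.59 and 15.10, a mean percentile of 95.7, and the TSS of Fasl was the nearest.

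The summit windows of these peaks are printed on the plus strand of GRCm38 because they are the strongest distal peaks nearest to a member's TSS. The Fasl window lies at chr1:161766771-161766871 and the Tnfsf8 window at chr4:63840606-63840706.
Fasl distal: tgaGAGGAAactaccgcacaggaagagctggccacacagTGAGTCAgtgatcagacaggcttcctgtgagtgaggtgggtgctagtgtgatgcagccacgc
Tnfsf8 distal: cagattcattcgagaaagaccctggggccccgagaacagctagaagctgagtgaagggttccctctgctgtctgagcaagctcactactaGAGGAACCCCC

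The capitals in the Fasl window are a PU.1 and an AP-1 match, and those in the Tnfsf8 window are overlapping PU.1 and NF-kappaB matches. Over 7649 such windows at all distal peaks, PU.1 was found in 26.0%, AP-1 in 6.05% and NF-kappaB in 1.95%. Over the 46 distal peaks of members, PU.1 was found in 14 (30.4%), and AP-1 and NF-kappaB in 1 each (2.17%). RUNX was found in 4 of the 46 (8.70%), against 21.1% of all distal windows. The E-box was found in 26 of the 46 (56.5%), against 45.0%, and GATA in none, against 3.44%. The remaining words gave ETS in 2 (4.35%, against 5.82%), Sp/KLF in 3 (6.52%, against 8.22%), the interferon word in 2 (4.35%, against 3.11%) and CRE in none (against 0.405%).

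Tnf, Lta and Ltb lie side by side on chromosome 17 and share the same 3 distal peaks. A peak in an intron of Tnf, 1.32 kb downstream of its TSS, had signals of 4.75 and 7.75, at percentiles 1.71 and 19.4. A peak in an exon of Ltb had signals of 6.09 and 6.36, and its replicate 2 interval is the Ltb promoter overlap described above. The third, in an intron of Nfkbil1 and Gm16181, had signals of 7.26 and 6.82. All 3 stood low in the lists, at mean percentiles between 7.55 and 18.2. Tnfsf11, which encodes RANKL, had a peak 22.7 kb upstream with 8.63 and 9.09. Tnfsf9 had one 8.57 kb upstream with 7.77 and 8.58. Tnfsf10 had one 46.2 kb upstream in an intron of Nceh1, with 8.82 and 8.10. Tnfsf14 had one 15.4 kb upstream in C3, nearest to the TSS of that gene, with 7.69 and 9.25.

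Among receptors, Tnfrsf1b had the most distal peaks, 6, a number reached by 0.243% of all genes. The strongest lay in its own intron 5.70 kb downstream of the TSS, with signals of 11.83 and 11.02. Another, 40.1 kb upstream, lies in an intron of the neighbouring Tnfrsf8 and had 10.81 and 9.66. The other 4 ranged between 6.29 and 9.11 in replicate 1 and between 6.93 and 9.30 in replicate 2, and 2 of them were nearer to Vps13d. Tnfrsf8 had 3 distal peaks, all nearest to its own TSS, the strongest 14.7 kb downstream in an intron with 11.31 and 12.47. In the lists of the single replicates, the promoter of Tnfrsf8 itself had only less strict peaks. Both series-level lists had a peak over it.

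Tnfrsf17, which encodes the plasma cell receptor BCMA and had no promoter peak, had 4 distal peaks. Those 43.0 kb upstream and 29.7 kb downstream were nearest to Gspt1 and Snx29. The strongest of the 4 lay in an intron of Tnfrsf17, 3.77 kb downstream of the TSS, with signals of 13.18 and 12.56 (mean percentile 87.2). Tnfrsf14 had 3, and the strongest lay 15.9 kb upstream between genes, with 12.06 and 13.54, against promoter signals of 5.66 and 6.76. The other peaks of Tnfrsf14 were nearest to Fam213b and Hes5. In Tnfrsf21 an intronic peak 42.3 kb downstream had 12.31 and 13.55, while the peak 1.01 kb downstream is the one already counted with its promoter. Tnfrsf11b had an exonic peak 26.8 kb downstream with 12.97 and 11.71, above its promoter peak in both replicates. Tnfrsf23 had a peak 21.1 kb upstream in an intron of Osbpl5 with 10.50 and 12.87, and Tnfrsf11a had one 6.48 kb downstream with 9.08 and 11.68.

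The distal peak with the highest mean percentile of any member flanked Tnfrsf12a, the TWEAK receptor, but another gene lay nearer. This peak, 22.9 kb upstream, had signals of 18.77 and 18.42 (mean percentile 99.6) and was nearest to Cldn9. A second Tnfrsf12a peak, 47.1 kb downstream in an exon of Mmp25, had 13.73 and 13.17 (mean percentile 90.2). The 4 distal peaks of Tnfrsf25 were all nearer to Plekhg5 or Espn and had signals between 6.03 and 9.43 in replicate 1 and between 6.21 and 8.96 in replicate 2. Ltbr had 1, 42.1 kb downstream and nearest to Tuba3a, with 11.41 and 10.05. Single peaks in introns were nearest to Tnfrsf10b (6.77 and 8.60), Tnfrsf19 (7.22 and 7.94) and Tnfrsf1a (7.13 and 7.22). Single peaks of Cd40 (7.35 and 7.30), Tnfrsf9 (6.51 and 8.43) and Tnfrsf13b (5.76 and 7.96) were nearer to other genes. In the less strict lists the counts were 16 at Tnfrsf1b and 8 each at Tnfsf8, Tnfrsf8 and Tnfrsf25.

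**Figure D4:**
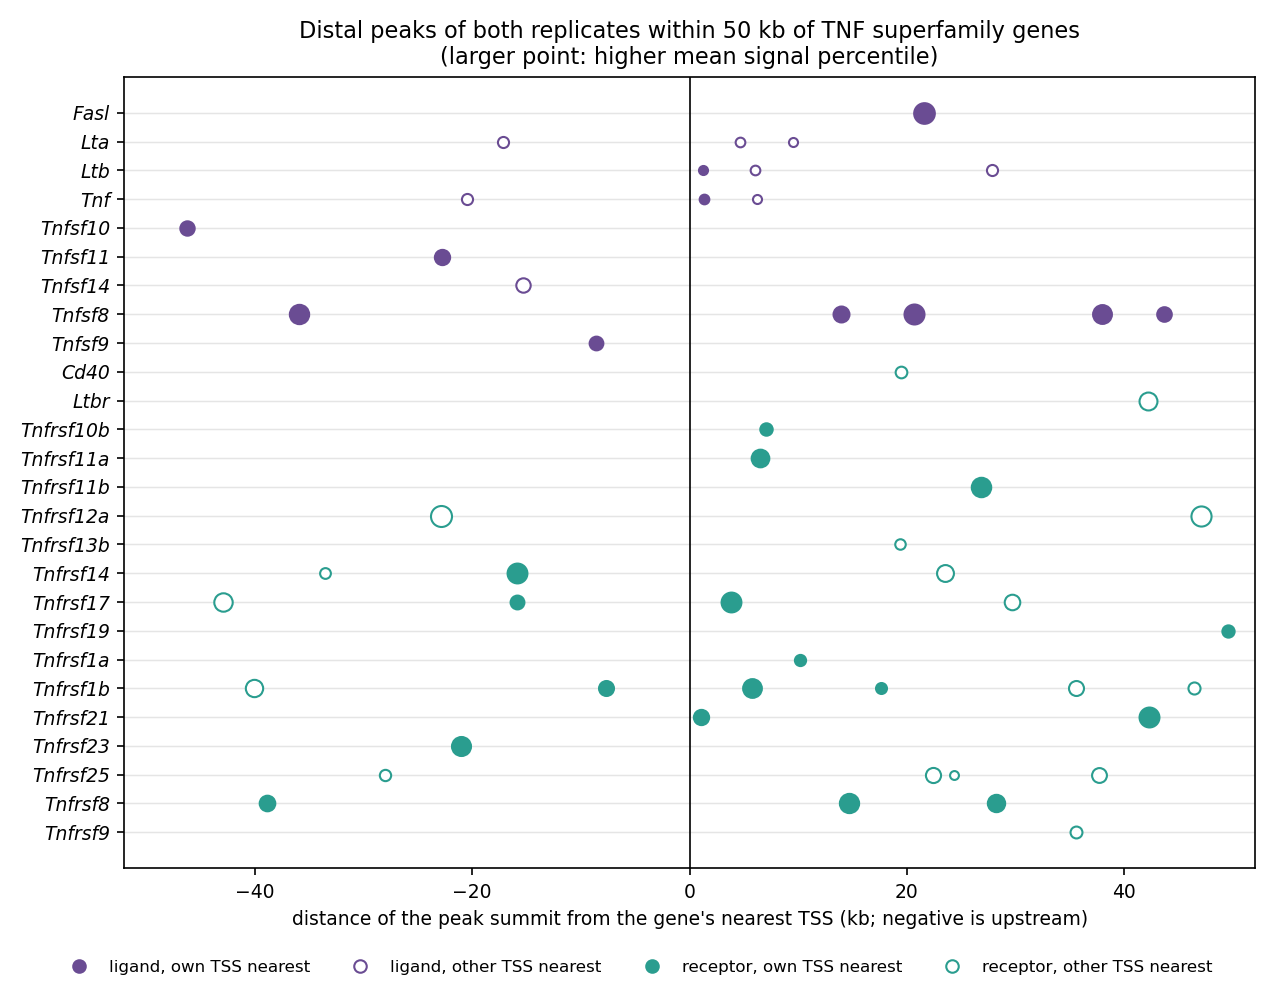
Distance in kb of each shared distal peak's summit from the nearest TSS of the member (horizontal axis, upstream negative), 1 row per member with such a peak, ligands above receptors. Filled points have that member's TSS as the nearest and open points have another gene's, and a larger point is a higher mean signal percentile; all 5 points of Tnfsf8 are filled and all 4 of Tnfrsf25 are open.

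Ligands and receptors that are known to bind each other were set side by side over 25 pairs. Both genes were open in 4 pairs, which join TRAIL (Tnfsf10) to the decoys Tnfrsf22 and Tnfrsf23, and LIGHT (Tnfsf14) to Ltbr and Tnfrsf14. The ligand alone was open in 1 pair, Tnfsf10 with the signaling receptor Tnfrsf10b. The receptor alone was open in 8 pairs. These were Tnf and Lta each with Tnfrsf1a and with Tnfrsf1b, Ltb with Ltbr, Fasl with Fas, Tnfsf9 with Tnfrsf9, and Tnfsf11 with Tnfrsf11b. Neither was open in 12 pairs. The pairs are a selection and not every known one, with Tnfrsf11b listed with Tnfsf11 only. Cd70, Tnfsfm13, Ngfr, Tnfrsf19, Tnfrsf26 and the open receptor Tnfrsf21 are in no pair. Pairs also share genes, so these counts are a description of the list.

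Genes that carry the signal onward were open more often than the members. Of 38 listed pathway genes, 30 were open (78.9%), against 41.3% of all genes, and of the 33 that are not family genes, 26 were (78.8%). The list holds widely expressed genes and its share was not tested. All 7 listed genes of ubiquitin chain assembly and removal were open, with Tnfaip3, an inhibitor of NF-kappaB signaling, at 10.09 and 6.79. Of the kinase and kinase scaffold genes, 7 of 9 were open, led by Ikbkg, the regulatory subunit of the IkappaB kinase, at 17.18 and 17.41. Ikbkb (10.90, replicate 2) and Map3k5 (7.87, replicate 1) had a thresholded peak in 1 replicate only. Of the Traf and Birc genes, 6 of 9 were open, among them Traf6 at 17.06 and 13.57 and Traf2 at 12.19 and 14.67, while Traf1, Traf3 and Traf4 were not. Of the death adaptors and effectors, 5 of 7 were open: Tradd, Fadd, Ripk1, Ripk3 and Casp8. Ripk1, a kinase recruited to TNF receptors, had 11.28 and 11.12, and Mlkl and Cflar had less strict peaks only. Adam17, the protease that sheds TNF, was open. Of 5 family genes whose symbols fall outside the rule, Eda, Edar, Eda2r and Relt were open and Cd27 was not.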

How the data were processed

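ATAC-seq was run on 2 libraries of 1 group. The deposited peak lists, in mm10 per the deposited file notes, give a signal value and the −log10 of a q-value per peak, both made by the authors. For the aligner, the peak caller and the signal scaling, a description is not given in the sources used here. Read depth is unknown, so no precision can be put on a peak. Intervals listed once per summit were counted once, at the strongest summit: 34499 lines gave 25141 peaks in replicate 1, and 34174 gave 24495 in replicate 2. Signals were compared within a list only, by percentile. The labels name sequencing instruments for replicate 1 only, so whether the replicates differed in instrument is unknown. Any effect of instrument could not be told apart from replicate.

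TSSs came from protein-coding transcripts of GENCODE M21, and a peak counted as shared when it overlapped one of the other replicate by 1 bp or more. CpG ratios used the promoter sequence, and motif words were matched exactly. Sequences were read from the GRCm38 genome. Scripts used Python 3.11.15, NumPy 2.4.6, SciPy 1.17.1, pysam 0.24.0, Biopython 1.88 and Matplotlib 3.10.9, and the overlap and counting steps were tested on simulated data. No condition was compared, so no test was run.

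The members and all lists (pathway, pairs, markers, motifs) were chosen with earlier results of these data known. The rule for named genes took every member, with values in each replicate for those with a promoter peak in both thresholded lists or a distal peak, and the others by group. Printed windows came from up to 3 ligand and 5 receptor promoters and 4 distal peaks with the highest mean percentile. Of the windows so chosen, the Ltbr promoter and both Tnfrsf12a distal peaks, which lay nearer to other genes, are not printed. Alternatives were the less strict and series-level lists, the 50% strongest peaks, other promoter and distal sizes, other overlap rules and each replicate alone.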

Additional observations from a re-analysis of the deposited data

How the results depend on the processing

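The 12 open members, 2 ligands and 10 receptors, were the same in number with promoters of 500 bp either side, with the most upstream TSS only and when the peaks of the replicates had to overlap each other there. All genes stood at 40.0%, 38.5% and 41.2% in these settings, against 28.6% of members. Less strict lists gave 27 members (64.3%, against 58.0% of all genes), 9 ligands and 18 receptors. The series-level conservative list gave 26 members (61.9%, against 54.7% of all genes), 8 ligands and 18 receptors. The series-level thresholded list gave 19 members (45.2%, against 51.9% of all genes) and 5 ligands, with 14 receptors. Members together thus stood above all genes in the less strict and conservative lists, and below them in the thresholded ones. The 50% strongest peaks left 6 members, with 2 ligands and 4 receptors (25.6% of all genes). Promoters of 2000 bp either side gave 4 ligands (Ltb and Tnf were added), 10 receptors and 42.9% of all genes. With 1 replicate at a time the ligands ranged between 2 and 4 (4 from replicate 2 alone) and the members between 12 and 15, against 44.1% of all genes in replicate 2 alone and 46.0% in replicate 1 alone.

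The mean number of distal peaks was 3.50 per ligand and 4.12 per receptor in the less strict lists (all genes 2.36), 0.278 and 0.583 with the 50% strongest peaks (0.274), 0.556 and 0.542 within 20 kb (0.304), 2.06 and 2.54 within 100 kb (1.36), and 0.611 and 0.708 when a peak counted only for its nearest gene (0.350). With 1 replicate at a time it ranged between 1.22 and 1.28 per ligand and between 1.75 and 1.96 per receptor (all genes 0.975 in replicate 2 alone and 0.999 in replicate 1 alone). Ligands were below receptors in each of these except within 20 kb. The median percentile of 56.3 ranged between 46.0 and 65.6. The causes were not tested. No paired analysis was possible because there is 1 group. Unknown depth limits what an uncalled promoter shows.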
